A study of Homo sapiens with 4 samples.

Results

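The aminoacyl-tRNA synthetases are the enzymes that load each tRNA with its amino acid. Their mRNA levels were examined here in HEK-293 cells after siRNA knockdown of ZSCAN5A or ZSCAN5B. The 36 synthetase genes were taken by symbol from a table of 24934 gene rows. The rule used no measured values, but earlier results of these data were known when the genes were chosen. They comprise 20 genes for cytosolic enzymes and 16 for mitochondrial enzymes, the latter with symbols that end in 2. GARS and KARS serve both compartments and were counted as cytosolic.

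HEK-293 is an established human embryonic kidney cell line. The cells received siRNA with the transfection reagent Lipofectamine RNAiMAX at 10 nM, and RNA was collected after 48 h. The 4 treatments were ZSCAN5A siRNA number 4 (si4), ZSCAN5A siRNA number 5 (si5), ZSCAN5B siRNA number 1 (si1) and a scrambled negative control siRNA. One question of the study was which genes differ in expression between knocked down and control cells. Each treatment was a transient knockdown represented by 1 library, so a difference between treatments has no replicate of the control behind it, and no p-value stands beside the ratios. A model that takes si4 and si5 as samples of 1 group is among the alternatives. The si4 and si5 libraries target the same gene with different sequences. The study reports that these siRNAs also differed in their effect on related genes. In its qRT-PCR, ZSCAN5B was raised with si4 and not with si5, and ZSCAN5D was lowered with both. Each is 1 library, so their difference cannot be divided between siRNA sequence and variation between libraries.

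Each synthetase recognises 1 amino acid and joins it to the matching tRNA in a reaction driven by ATP, and the ribosome then reads the loaded tRNA. The enzymes fall into class I and class II by the fold of their catalytic domain, and several of the cytosolic ones are held together with scaffold proteins in the multisynthetase complex. When amino acids run short, uncharged tRNA activates the kinase GCN2, translation of the transcription factor ATF4 increases, and ATF4 in turn activates genes for amino acid synthesis, amino acid import and many cytosolic synthetases.

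Expression was given as FPKM, a measure of sequenced fragments that is corrected for both transcript length and library depth. From the steps between low FPKM values the libraries were estimated to hold 53800000 to 83200000 fragments, with si5 the deepest, 1.545 times the control. The study's methods describe a narrower range of reads per library, so the counting intervals given here rest on an estimate. ZSCAN5A mRNA stood at 2.42 FPKM in the control and 2.53 with si1, and at 0.730 with si4 and 0.713 with si5. ZSCAN5B mRNA was 0.0948 FPKM with si1 and 0.0903 in the control, a level too low for these values to check the knockdown. The study reports qRT-PCR and Western blot measurements in which si1 lowered ZSCAN5B transcript and protein. Here si1 is called the library labelled ZSCAN5B knockdown. The markers VIM, KRT8, KRT18, NEFL, NEFM and LHX1 were above 3 FPKM in all 4 libraries and PAX2 was at 0.584 to 1.16 FPKM, while PTPRC, CD3E, PECAM1, CDH5, ALB, DCN and APOA1, markers of other cell types, were at 0.160 FPKM or below and the fibroblast gene COL1A1 was at 1.10 to 1.85 FPKM. The FPKM values of the control summed to 488036, less than the 537181 to 546239 of the siRNA libraries. Scaling each library to the same sum (the TPM scale) therefore moved the median log2 ratio of all genes from -0.020 to -0.18 in the ZSCAN5A comparison and from -0.0097 to -0.15 in the ZSCAN5B comparison. A direction against the control depends on this choice, so counts of genes against the control are given on both scales. Levels of single genes are as deposited. TPM scaling moves a gene and the median of all genes nearly alike. A count relative to that median is therefore the same on both scales by construction, and that agreement is no check on the result.

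All 36 synthetases were expressed above 1 FPKM in every library and none was listed at 0. In the control the cytosolic genes ranged from 27.2 to 129 FPKM with a median of 69.7, and the mitochondrial genes from 4.04 to 92.5 FPKM with a median of 14.0. TARS, which charges threonine tRNA, had the highest level, at 129 FPKM in the control. SARS, for serine, NARS, for asparagine, IARS, for isoleucine, and MARS, for methionine, followed at 114, 114, 99.96 and 96.0 FPKM. The lowest were PARS2, for mitochondrial proline tRNA, at 4.04 FPKM, FARS2, for mitochondrial phenylalanine tRNA, at 5.42 FPKM, and MARS2, for mitochondrial methionine tRNA, at 5.83 FPKM. IARS2, the mitochondrial isoleucine enzyme, stood apart from its compartment at 92.5 FPKM, the 8th highest of the 36. The other 15 mitochondrial genes were at 36.1 FPKM or below.

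**Figure D1:**
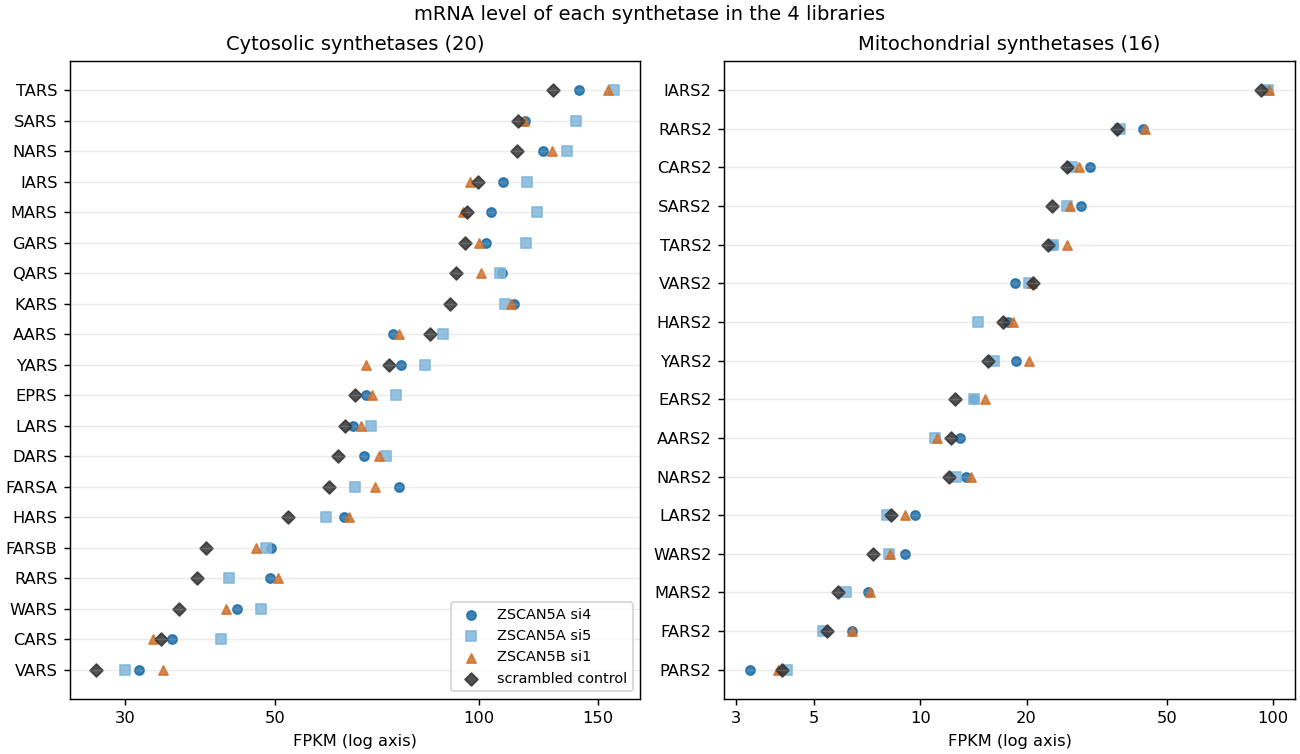
FPKM of each synthetase gene (horizontal log axis) in the 4 libraries, cytosolic genes on the left and mitochondrial genes on the right, ordered by the control level; each symbol is 1 library. Cytosolic genes lie between 27.2 and 159 FPKM, and on this deposited scale the control is the lowest of the 4 libraries for 25 of the 36 genes.

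In the ZSCAN5A comparison the mean of si4 and si5 was set against the control, and a gene was called past the limit when the ratio exceeded 1.5-fold. No synthetase passed it, in a table where 0.677% of 12993 tested genes passed it upwards and 3.11% downwards. On the deposited scale 19 of 20 cytosolic and 12 of 16 mitochondrial genes had a ratio above 1, against 46.7% of all genes, with median log2 ratios of 0.20 and 0.11 against -0.020 for all genes. On the TPM scale 16 of 20 and 5 of 16 had a ratio above 1, against 21.2% of all genes, with medians of 0.044 and -0.045. Relative to the median of all genes, which scaling moves along with the genes, 19 cytosolic and 12 mitochondrial genes were higher. At a lower limit, a log2 ratio of 0.32 in either direction, WARS alone passed upwards as deposited, where 5.14% of all genes did, and no synthetase passed downwards, where 13.4% did. With TPM scaling no synthetase, WARS included, passed this limit in either direction, where 1.23% of all genes passed upwards and 27.9% downwards.

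In the library labelled ZSCAN5B knockdown no synthetase was past 1.5-fold either, with 0.844% of 12921 genes past the limit upwards and 3.17% downwards. The ratio to the control was above 1 for 15 of 20 cytosolic and 13 of 16 mitochondrial genes on the deposited scale, against 48.5% of all genes. The median log2 ratio was 0.15 for the cytosolic and 0.16 for the mitochondrial genes, against -0.0097 for all genes. On the TPM scale these counts were 10 of 20 and 9 of 16, against 25.9% of all genes, and the medians were 0.0097 and 0.026. Relative to the median of all genes, 15 cytosolic and 14 mitochondrial genes were higher. RARS, VARS and YARS2 passed the log2 limit of 0.32 upwards as deposited, where 6.70% of all genes did, and no synthetase passed downwards, where 12.8% did. After TPM scaling their log2 ratios were 0.26, 0.19 and 0.25, and no synthetase passed the limit in either direction, where 1.77% of all genes passed upwards and 25.2% downwards. The same control library enters both comparisons. As deposited, the control was the lowest of the 4 libraries for 15 cytosolic and 10 mitochondrial synthetases, against 30.1% of 12983 genes, and the highest for VARS2 alone, against 36.2%. With TPM scaling it was the lowest for 7 synthetases (FARSB, HARS, KARS, RARS, WARS, EARS2 and WARS2), against 11.1% of genes, and the highest for 7 (AARS, LARS, AARS2, HARS2, IARS2, PARS2 and VARS2), against 62.5%.

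**Figure D2:**
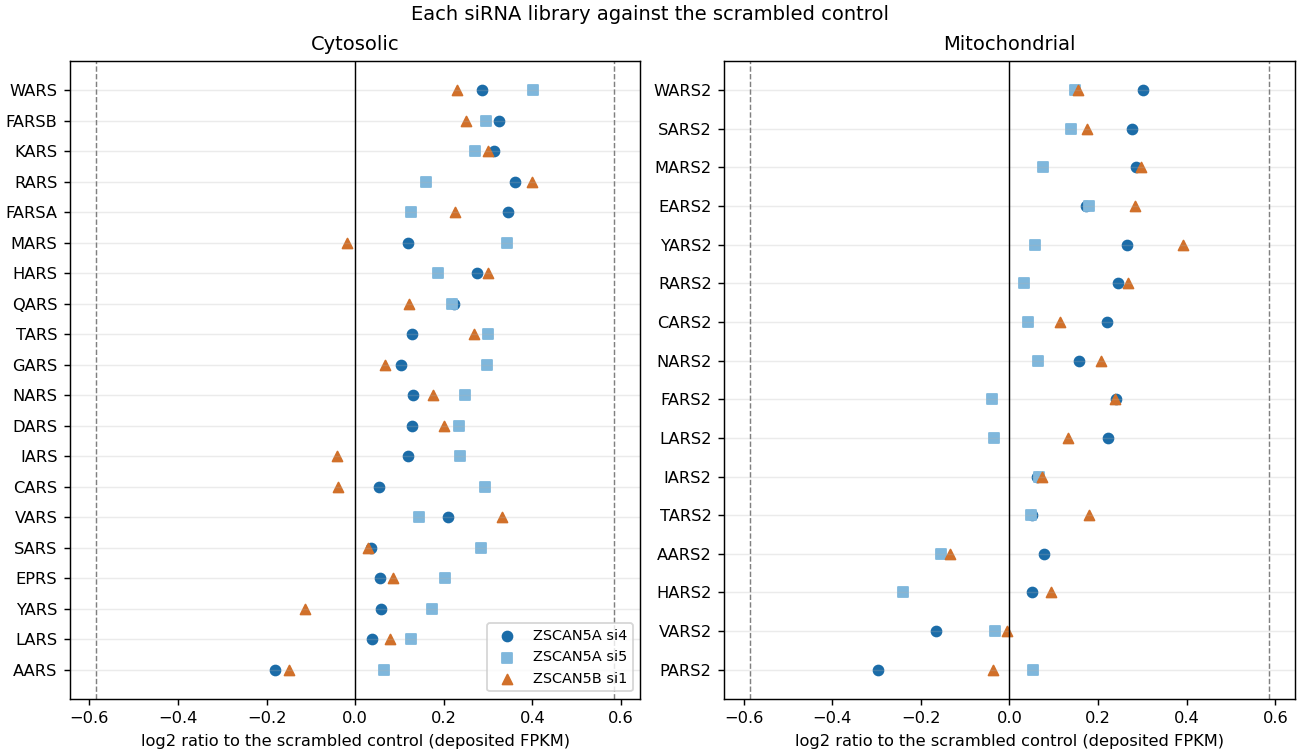
log2 ratio of each siRNA library to the scrambled control on deposited FPKM (horizontal axis) for the cytosolic and mitochondrial synthetases, ordered by the ZSCAN5A comparison; symbols are single libraries, and dashed lines mark 1.5-fold. No gene reaches the dashed lines, and on the TPM scale the si4, si5 and si1 symbols would all lie lower by 0.16, 0.14 and 0.14.

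The summed FPKM of the 20 cytosolic genes was 1621 with si4, 1733 with si5, 1599 with si1 against 1469 in the control. That of the 16 mitochondrial genes was 353, 331, 356 and 323 in the same order. As a share of the FPKM total of the library the cytosolic sum was 0.297% with si4, 0.321% with si5, 0.298% with si1 against 0.301% in the control, so only si5 was above the control on that scale. The mitochondrial share was 0.0647%, 0.0614%, 0.0663% and 0.0661%. The ratio of the cytosolic to the mitochondrial sum needs no scaling between libraries. It was 5.23 with si5 and 4.59, 4.49 and 4.55 with si4, si1 and in the control.

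The 8 enzymes of the multisynthetase complex come first. Their values, and those of the other genes that follow, are on the deposited scale unless stated. EPRS, which joins the glutamate and proline enzymes in 1 chain, was at 68.2 FPKM with si4, 75.5 with si5, 69.6 with si1 against 65.6 in the control. IARS (hg19 chr9:94972625-95056038) was at 109 FPKM with si4, 118 with si5, 97.2 with si1 against 99.96 in the control. LARS, the leucine enzyme that also senses leucine for the kinase mTORC1, was at 65.1, 69.3, 67.0 and 63.5 FPKM in that order. In all 3 the si5 library had the highest value, and for IARS si1 was the lowest. MARS (chr12:57881736-57910438), which charges both initiator and elongator methionine tRNA, was at 104 FPKM with si4, 122 with si5, 94.8 with si1 against 96.0 in the control. Its log2 ratio to the control was 0.12 with si4, 0.34 with si5 and -0.018 with si1, so it followed the pattern of IARS.

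The remaining enzymes of the complex were QARS for glutamine, RARS for arginine, KARS for lysine and DARS for aspartate. QARS was at 108 FPKM with si4, 108 with si5, 101 with si1 against 92.6 in the control. RARS (chr5:167913463-167946309) was at 49.2, 42.8, 50.6 and 38.3 FPKM in that order. Its log2 ratio of 0.40 in the library labelled ZSCAN5B knockdown was the largest of any synthetase there, with a counting interval of 0.34 to 0.46. That interval covers counting error on the deposited scale only, and the ratio on the TPM scale, 0.26, lay below it. KARS was at 113 FPKM with si4, 109 with si5, 112 with si1 against 90.8 in the control. For these 3 genes all siRNA libraries stood above the control, and si4 and si1 lay closer to each other than si5 lay to either in RARS. DARS was at 67.8, 72.9, 71.3 and 62.1 FPKM, with the control again the lowest. Over the 8 enzymes the median log2 ratio was 0.20 in the ZSCAN5A and 0.10 in the ZSCAN5B comparison, and 8 and 6 of them had a ratio above 1, against 46.7% and 48.5% of all genes. With TPM scaling 6 and 3 of them did, against 21.2% and 25.9%, and the medians were 0.048 and -0.035. Relative to the median of all genes 8 and 6 were higher.

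Of the class I enzymes outside the complex, WARS (chr14:100800125-100842680), the tryptophan enzyme, had the largest ZSCAN5A difference of all synthetases. It was at 44.0 FPKM with si4, 47.7 with si5, 42.4 with si1 against 36.1 in the control. The log2 ratio for the mean of si4 and si5 was 0.34. On the TPM scale its ratio was still above 1 in each library, at 0.12, 0.26 and 0.092 on the log2 scale. VARS (chr6:31745297-31763712), for valine, was at 31.4, 30.0, 34.2 and 27.2 FPKM, with its highest value in si1, a log2 ratio of 0.33. YARS, for tyrosine, was at 76.9 FPKM with si4, 83.2 with si5, 68.3 with si1 against 73.8 in the control. CARS, for cysteine, was at 35.3, 41.6, 33.0 and 34.0 FPKM. YARS and CARS thus had si5 as the highest library and si1 as the lowest, with log2 ratios for si1 of -0.11 and -0.040.

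Among the class II enzymes AARS (chr16:70286297-70323412), which charges alanine tRNA, was the exception among cytosolic genes. It was at 74.7 FPKM with si4, 88.6 with si5, 76.3 with si1 against 84.7 in the control. The control value lay within those of the 2 ZSCAN5A siRNAs, with log2 ratios of -0.18 for si4 and 0.066 for si5, and the ratio for si1 was -0.15. The mean of si4 and si5 gave -0.053, the only cytosolic value below 0 on the deposited scale. TARS was at 141 FPKM with si4, 159 with si5, 155 with si1 against 129 in the control. NARS was at 125, 135, 128 and 114 FPKM. In TARS and NARS all 3 siRNA libraries were above the control on the deposited scale, though for si4 not on the TPM scale, where the log2 ratios were -0.034 and -0.032.

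SARS was at 117 FPKM with si4, 139 with si5, 117 with si1 against 114 in the control, so that si5 stood alone. GARS, the glycine enzyme, was at 103, 117, 100.1 and 95.5 FPKM, with si5 again the highest. HARS, the histidine enzyme, was at 63.3, 59.5, 64.3 and 52.3 FPKM, and here si5 was the lowest of the siRNA libraries. FARSA and FARSB encode the alpha and beta subunits of the phenylalanine enzyme, which needs both. FARSA was at 76.3 FPKM with si4, 65.6 with si5, 70.2 with si1 against 60.1 in the control. FARSB (chr2:223436162-223520827) was at 49.4, 48.5, 46.9 and 39.5 FPKM, a log2 ratio of 0.31 in the ZSCAN5A comparison. The subunits kept unequal levels, with FARSA to FARSB ratios of 1.55, 1.35, 1.496 and 1.52.

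The mitochondrial enzymes are encoded in the nucleus and imported, and they charge the tRNAs that the mitochondrial genome makes. YARS2 (chr12:32899478-32908887), for tyrosine, had the largest mitochondrial ratio in the library labelled ZSCAN5B knockdown, at 18.6 FPKM with si4, 16.1 with si5, 20.3 with si1 against 15.5 in the control. Its log2 ratios were 0.27, 0.057 and 0.39, and the counting interval for si1 was 0.30 to 0.48. The si1 ratio on the TPM scale, 0.25, lay below that interval, which covers counting error on the deposited scale only. MARS2 was at 7.11, 6.15, 7.17 and 5.83 FPKM. WARS2, for tryptophan, was at 9.06, 8.15, 8.19 and 7.36 FPKM and had the largest mitochondrial log2 ratio in the ZSCAN5A comparison, 0.23. For these 3 genes the control was the lowest library and si4 was above si5. SARS2, for serine, was at 28.6 FPKM with si4, 26.0 with si5, 26.7 with si1 against 23.6 in the control. EARS2, for glutamate, was at 14.1, 14.2, 15.3 and 12.5 FPKM. In EARS2 the 2 ZSCAN5A siRNAs gave nearly equal values.

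RARS2, CARS2 and NARS2, for arginine, cysteine and asparagine, were also lowest in the control. RARS2 was at 42.8 FPKM with si4, 36.9 with si5, 43.4 with si1 against 36.1 in the control. CARS2 was at 30.4, 26.9, 28.2 and 26.1 FPKM. NARS2 was at 13.5, 12.6, 13.9 and 12.1 FPKM. In all 3 genes si5 was the siRNA library closest to the control. FARS2 was at 6.40, 5.27, 6.39 and 5.42 FPKM, and LARS2, for leucine, was at 9.63, 8.06, 9.04 and 8.25 FPKM. In these 2 genes si5 lay below the control while si4 and si1 lay above it. IARS2 was at 96.6, 96.9, 97.3 and 92.5 FPKM and TARS2, for threonine, at 23.8, 23.8, 26.0 and 23.0 FPKM, the smallest spread between si4 and si5 among mitochondrial genes together with EARS2.

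The mitochondrial genes at the other end of the order were PARS2, VARS2, HARS2 and AARS2, for proline, valine, histidine and alanine. PARS2 was at 3.29 FPKM with si4, 4.19 with si5, 3.93 with si1 against 4.04 in the control, from an estimated 455 fragments with si4. VARS2 was at 18.6, 20.4, 20.7 and 20.8 FPKM, so the control was the highest library. HARS2 was at 17.8, 14.5, 18.3 and 17.2 FPKM. PARS2 was lowest with si4 and HARS2 with si5, and the 2 siRNAs against ZSCAN5A gave opposite signs for both. AARS2 was at 12.9, 11.0, 11.1 and 12.2 FPKM, below the control with si5 and si1. HARS and HARS2 lie 46 bases apart on chromosome 5, and their log2 ratios in the ZSCAN5A comparison were 0.23 and -0.088.

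For 13 amino acids 1 cytosolic and 1 mitochondrial gene could be paired by symbol. In the control the cytosolic level was 1.06 to 16.5 times the mitochondrial level, with a median of 4.84. The pair for methionine was the most unequal, with MARS at 14.7, 19.8, 13.2 and 16.5 times MARS2 with si4, si5, si1 and in the control. The pairs for arginine, isoleucine, cysteine and valine were nearly equal, at 1.06, 1.08, 1.30 and 1.30 in the control. YARS was 4.12, 5.16, 3.36 and 4.76 times YARS2, the pair with the largest displacement in si1, a log2 difference of -0.50 from the control. These ratios are within a library and do not depend on scaling between libraries.

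**Figure D3:**
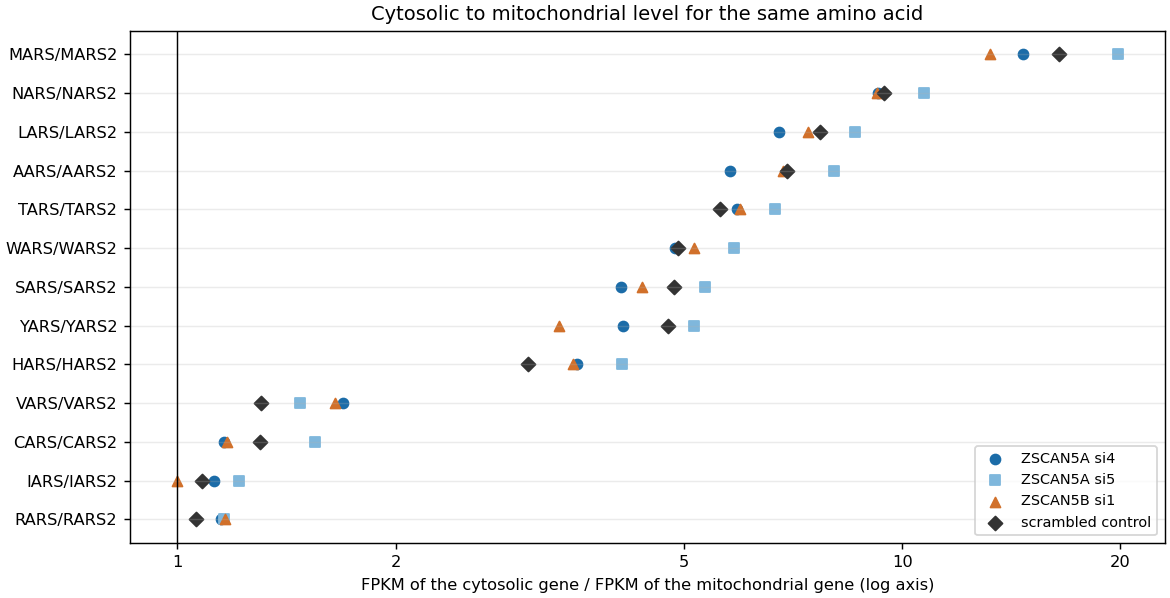
Ratio of the FPKM of the cytosolic gene to that of the mitochondrial gene for the same amino acid (horizontal log axis) in each library, 13 pairs ordered by the control; each symbol is 1 library. The ratio is highest with si5 in 11 of the 13 pairs and runs from about 1 for RARS and IARS to 16.5 in the control for MARS.

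The 2 ZSCAN5A siRNAs were then compared with each other, a comparison chosen after the values had been seen that does not use the control library. The cytosolic synthetases split along a list of 12 genes often named as ATF4 targets. All 12 were higher with si5 than with si4, at log2 ratios of 0.089 to 0.25 and a median of 0.16, where 45.4% of 12800 genes were higher and the median of all genes was -0.018. Of the 8 cytosolic synthetases not on the list, only DARS was higher with si5, at 0.11, and their median was -0.055. Of the 16 mitochondrial genes 4 were higher, and their median was -0.17. The middle 50% of all genes lay between -0.13 and 0.098. Above that range were 11 of the 12 listed genes, the exception being LARS, and below it were 10 of the 16 mitochondrial genes. Also above it were 2 mitochondrial genes and 1 other cytosolic gene, DARS. Of the 8 other cytosolic genes 2 lay below it. The counts of listed and of mitochondrial genes on each side of 0 were 12 of 12 and 5 of 16 on the TPM scale. At the log2 limit of 0.32 only PARS2 passed upwards and none passed downwards, against 6.47% and 5.42% of all genes. The si5 library was deeper than si4, at an estimated 83200000 fragments against 58800000, and the part of depth in the result was not tested.

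SARS had the largest difference on the list, 117 FPKM with si4 and 139 with si5, a log2 ratio of 0.25 with an exact 95% counting interval of 0.22 to 0.28. AARS followed at 0.25 with an interval of 0.22 to 0.28, CARS at 0.24 with 0.19 to 0.29 and MARS at 0.22 with 0.20 to 0.25. The smallest was LARS, 0.089 with an interval of 0.062 to 0.12. The intervals of all 12 lay above 0, and those of 6 of the 8 other cytosolic genes lay below 0. Of the 16 mitochondrial genes 2 had an interval above 0 and 11 one below 0. Over 12247 genes 26.2% had an interval above 0 and 33.8% below, and the intervals cover counting error of these libraries only. The split also ran through the multisynthetase complex. EPRS, IARS, LARS and MARS, which are on the list, were all higher with si5, and of QARS, RARS, KARS and DARS only DARS was.

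**Figure D4:**
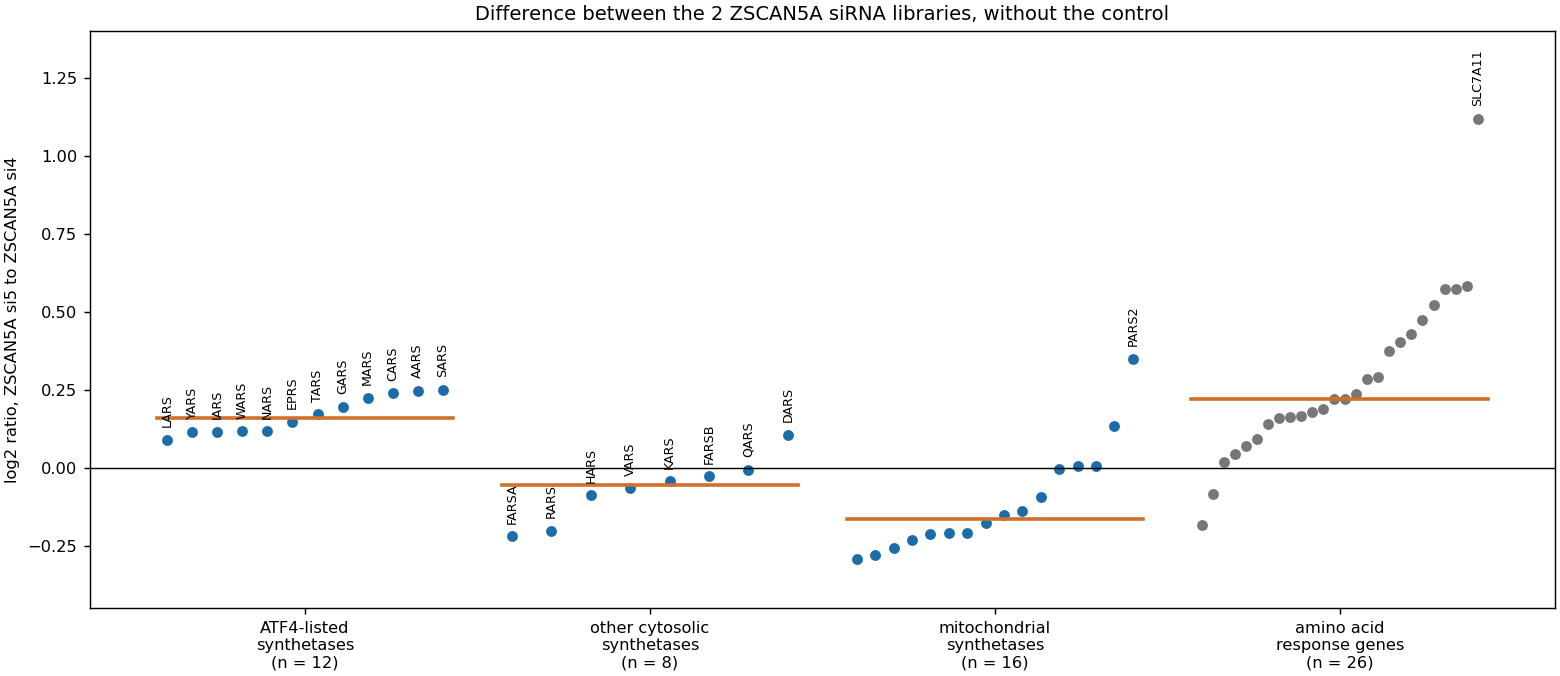
log2 ratio of FPKM with ZSCAN5A si5 to FPKM with ZSCAN5A si4 (vertical axis) for 3 groups of synthetases and for 26 amino acid response genes; each point is 1 gene and orange bars are medians. The 12 ATF4-listed synthetases all lie above 0 with a median of 0.16, while the other cytosolic and the mitochondrial synthetases have medians of -0.055 and -0.17.

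In the library labelled ZSCAN5B knockdown the listed and the other cytosolic genes overlapped, with log2 ratios to the control of -0.15 to 0.27 and of 0.12 to 0.40. Of the 12 listed genes 7 had a ratio above 1, near the 48.5% of all genes, with a median log2 ratio of 0.048, and 8 of the 8 others did, with a median of 0.27. After TPM scaling these counts were 3 of 12 and 7 of 8, against 25.9% of all genes, with medians of -0.091 and 0.14. Relative to the median of all genes 7 and 8 were higher. With si4 alone the medians against the control were 0.080 and 0.29, and with si5 alone 0.27 and 0.20. The summed FPKM of the listed genes divided by that of the other 8 needs no scaling, and it was 1.90 with si4, 2.23 with si5, 1.91 with si1 against 2.17 in the control. The si5 library and the control were thus close in this ratio and the si4 and si1 libraries were close to each other.

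Other genes of the amino acid response were taken from a list of 26, which holds the transporters, the serine and asparagine synthesis enzymes and the regulators around ATF4. With si5 against si4, 24 of the 26 were higher, where 45.4% of all genes were, with a median log2 ratio of 0.22 against -0.018 for all genes. A log2 ratio of 0.32 was passed upwards by 9 of them, where 6.47% of all genes passed it. SLC7A11, the cystine importer, was at 3.53 FPKM with si4, 7.66 with si5, 3.99 with si1 against 6.28 in the control. CHAC1, which breaks down glutathione, was at 14.0, 21.0, 12.5 and 15.9 FPKM. SLC7A1, an importer of arginine and lysine, was at 11.5, 17.1, 14.7 and 18.1 FPKM. In these 3 genes the si4 and si1 libraries were the lower ones. ATF4 mRNA itself was at 592, 611, 508 and 570 FPKM, a log2 ratio of 0.044 between si5 and si4. For si1, 4 of these 26 had a ratio to the control above 1, against 48.5% of all genes, with a median log2 ratio of -0.18. In the ZSCAN5A comparison 16 of the 26 did, against 46.7% of all genes, with a median of 0.020 that joins -0.11 for si4 and 0.13 for si5. In the ZSCAN5A and ZSCAN5B comparisons on the TPM scale 4 and 1 of the 26 had a ratio above 1. Of all genes 21.2% and 25.9% did. The medians of the 26 genes were -0.13 and -0.32 on that scale. Relative to the median of all genes 17 and 4 of the 26 were higher.

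Because the listed synthetases were all higher with si5 than with si4, the synthetase promoters were searched for the core of the amino acid response element, the sequence to which ATF4 binds with a C/EBP partner. The core was taken as TGATGNAA on either strand, in RefSeq windows of the GRCh38.p14 build from 250 bases before to 50 bases after the transcription start. The search was chosen after the values had been seen. Such elements are also part of how genes come to be listed as ATF4 targets, so the counts for the list are no independent evidence on it. Windows were found for 30 of the 36 genes, and 9 of these have a second start with its own window. A match was present in 7 of 10 listed synthetases, in 0 of 6 other cytosolic synthetases and in 1 of 14 mitochondrial synthetases. Of all 27305 RefSeq genes with a window 4.46% had a match, and of all 35116 windows 3.62% did. The stretches around the matches in the 7 listed genes and YARS2 are given to show the match and its surroundings, with the matching 8 bases in capitals, read 5′ to 3′ on the strand of the gene.
AARS: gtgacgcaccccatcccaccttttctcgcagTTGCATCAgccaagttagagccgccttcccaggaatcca
CARS: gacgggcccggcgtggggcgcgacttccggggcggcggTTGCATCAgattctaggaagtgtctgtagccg
GARS: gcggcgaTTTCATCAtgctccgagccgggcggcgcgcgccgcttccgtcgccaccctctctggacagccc
IARS: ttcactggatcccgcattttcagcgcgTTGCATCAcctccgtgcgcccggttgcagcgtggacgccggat
MARS: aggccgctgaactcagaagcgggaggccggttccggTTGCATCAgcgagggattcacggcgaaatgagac
NARS: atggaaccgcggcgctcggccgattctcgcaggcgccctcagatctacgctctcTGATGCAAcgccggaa
TARS: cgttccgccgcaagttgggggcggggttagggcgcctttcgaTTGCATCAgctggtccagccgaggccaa
YARS2: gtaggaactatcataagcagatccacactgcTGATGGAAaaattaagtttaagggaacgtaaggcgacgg

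In GRCh38.p14 these stretches of 70 bases are AARS at chr16:70289655-70289724 on the minus strand, CARS at chr11:3057394-3057463 on the minus strand, GARS at chr7:30594838-30594907 on the plus strand and IARS at chr9:92293668-92293737 on the minus strand. MARS lies at chr12:57488028-57488097 on the plus strand, NARS at chr18:57621807-57621876 on the minus strand, TARS at chr5:33440925-33440994 on the plus strand and YARS2 at chr12:32756056-32756125 on the minus strand. Counted from the transcription start as +1, the first base of the match was at -2 in CARS, -4 in MARS, -13 in IARS, -33 in GARS, +3 in TARS and +15 in NARS, all close to the start, but at -187 in AARS. The letters TTGCATCA occurred in AARS, CARS, IARS, MARS and TARS, and NARS holds the same 8 bases in the other orientation. GARS differed from these in the free position of the core. The match in YARS2, the mitochondrial gene, was at -197, and YARS2 was lower with si5 than with si4, at a log2 ratio of -0.21. The 7 cytosolic genes with a match had si5 to si4 log2 ratios of 0.12 to 0.25. The 9 cytosolic genes with a window but no match had -0.22 to 0.25, and EPRS, SARS and WARS, listed but without a match in these windows, were at 0.15, 0.25 and 0.12. A match is a description of the letters in the window and no binding was measured here.

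The partners of the synthetases were described by a list of 22 genes. It holds scaffolds, elongation factors that carry loaded tRNA, mitochondrial amidation enzymes, tRNA hydrolases and the tRNA exporter XPOT. AARSD1, DTD1, MTFMT, PSTK, SEPSECS and TARSL2 are also on it. The 3 scaffolds of the multisynthetase complex were higher than in the control in every siRNA library on the deposited scale. AIMP2 was at 26.3 FPKM with si4, 22.0 with si5, 23.7 with si1 against 17.6 in the control. EEF1E1, also known as AIMP3, was at 65.2, 63.0, 72.1 and 52.4 FPKM, and AIMP1 was at 26.1, 25.5, 22.8 and 20.6 FPKM. As deposited, AIMP1 and AIMP2 passed the log2 limit of 0.32 in the ZSCAN5A comparison, and AIMP2 and EEF1E1 passed it in the ZSCAN5B comparison. With TPM scaling EEF1E1 alone of the scaffolds passed it, in the ZSCAN5B comparison and barely. Of the 22 partners 3 and 6 passed it upwards in these comparisons as deposited, where 5.14% and 6.70% of all genes did. After TPM scaling 0 and 1 did, where 1.23% and 1.77% of all genes did. Downwards 1 and 0 partners passed as deposited, where 13.4% and 12.8% of all genes did. On the TPM scale 1 and 1 passed downwards, where 27.9% and 25.2% of all genes did. Over the 22 partners 19 had a ratio above 1 in the ZSCAN5A comparison and 21 in the ZSCAN5B comparison, with median log2 ratios of 0.18 and 0.21, against 46.7% and 48.5% of all genes with a ratio above 1. With TPM scaling 13 and 15 did, against 21.2% and 25.9%, and the medians were 0.025 and 0.072. Relative to the median of all genes 19 and 21 were higher. EEF1A1, the main carrier of loaded tRNA to the ribosome, was listed at 0 with si5 and at 3614 to 4374 FPKM in the other libraries, so its ZSCAN5A value rests on a listed 0. Without EEF1A1 the ZSCAN5A count was 19 of 21, and SEPSECS and TARSL2 were lower, at log2 ratios of -0.14 and -0.12.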

How the data were processed

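Gene expression was measured by RNA-seq of mRNA in 4 libraries. According to the submitters' processing notes, CASAVA 1.8.2, Trimmomatic 0.30, TopHat2 2.1.0 and Cufflinks 2.2.1 were used with hg19. The authors deposited FPKM values for 24934 gene rows, used here as deposited, with coordinates converted to count from 1. The table holds 0 other columns of values per sample. VARS and VARS2 stand on 7 and 6 rows, and the rows of alternative haplotypes, all at 0, were left out. The libraries were made with a stranded mRNA kit, according to the study's methods. Whether counting used strand and which annotation was used are not given in the sources used here.

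For ZSCAN5A the mean FPKM of si4 and si5 was divided by the control, and for ZSCAN5B the FPKM of si1, without a pseudocount. A gene was tested where some library of the comparison reached 1 FPKM and no side was at 0, and called at a ratio above 1.5-fold. Depth was estimated from 1745 genes under 0.1 FPKM, of which 72.6% stood in whole-number proportions up to 40 within 0.2%. Exact (Clopper-Pearson) 95% intervals of ratios of estimated fragments cover counting error only.

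The members and the gene lists were chosen with earlier results of these data known. All 36 members are accounted for, with values in every library. Genes of the other lists are given as counts and medians, with a few examples of large ratio. The scaffolds, ATF4 and EEF1A1 were named after their values were seen. Transcript length and GC content came from GENCODE annotation on GRCh37, and promoter sequences from RefSeq. Alternatives covered the expression limit, pseudocounts, scaling, the fold limit, repeated rows, single siRNAs and limma, and the TPM scale and a correction for length and GC content were added after seeing the data. The fold rule was tested on simulated data. Python 3.11.15, NumPy 2.4.6, pandas 2.3.3, SciPy 1.17.1, matplotlib 3.10.9, R 4.3.3 and limma 3.58.1 were used.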

Additional observations from a re-analysis of the deposited data

Results flagged for a closer look

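CARS, IARS, MARS and YARS were singled out because both ZSCAN5A siRNAs gave values above the control while si1 gave a value below it, on the deposited scale. The log2 ratio of the mean of si4 and si5 to si1 was 0.22 for CARS, 0.22 for IARS, 0.25 for MARS and 0.23 for YARS. The choice of these genes fixes the sign of that ratio, so it is a description. The difference was not tested, since each siRNA had 1 library. The exact 95% counting interval of the ratio to the control included 0 for CARS with si4 (-0.0016 to 0.11), for CARS with si1 (-0.096 to 0.018) and for MARS with si1 (-0.051 to 0.015). The TPM scale lowers all genes alike and put si4 below the control for all 4 genes. The median of all genes was -0.014 for si4, -0.028 for si5 and -0.0097 for si1. Relative to it the 4 genes were higher with si4 and si5, which their choice fixes because these medians are below 0. They were lower than it with si1, which their choice nearly fixes. MARS, at -0.018 with si1, was close to that median. All 4 genes are on the list of ATF4 targets, which holds 12 of the 20 cytosolic synthetases. The share of all genes with the flagged pattern was not counted.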

How the results depend on the processing

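No synthetase passed 1.5-fold in either comparison under another expression limit, pseudocount or scaling, with summed rows, with si4 or si5 alone, with transcript length and GC content removed, or at 2-fold. At a log2 ratio of 0.32, 1 gene passed in the ZSCAN5A and 3 in the ZSCAN5B comparison as deposited, and none on the TPM scale. limma on log2(FPKM + 1), with si4 and si5 as 2 samples of a group and 1 residual degree of freedom, called 0 of 36 synthetases at an adjusted p of 0.05 (3 at an unadjusted p under 0.05, all higher; of 13078 genes 10 were called, and 1607 had an unadjusted p under 0.05). The TPM scale was the setting that moved most values, and it was added after seeing the data. In the ZSCAN5A comparison the median log2 ratio became 0.044 for cytosolic, -0.045 for mitochondrial, 0.026 for ATF4-listed and 0.082 for other cytosolic genes, and the summed FPKM gave 0.037 (cytosolic) and -0.069 (mitochondrial). In the ZSCAN5B comparison these were 0.0097, 0.026, -0.091 and 0.14, and -0.016 and 0.0045 for the sums. The shift follows from the smaller FPKM sum of the control, and why that sum was smaller was not tested. With all genes the log2 shift was 0.16 for si4, 0.14 for si5 and 0.14 for si1. Without the 50 genes of highest FPKM it was 0.12, 0.096 and 0.11. Between si5 and si4 all 12 ATF4-listed genes stayed higher under every setting run, and the number of other cytosolic genes higher with si5 was 1 of 8 as deposited, 2 with median-ratio scaling or on the TPM scale, and 3 with upper-quartile scaling or with length and GC removed. No paired analysis was possible because each group holds 1 library.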

Other observations

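Across all genes tested the log2 ratio to the control was lower for longer transcripts, with Spearman's rho of -0.33 over 12394 genes in the ZSCAN5A and -0.34 over 12323 genes in the ZSCAN5B comparison. Among the 36 synthetases rho with length was -0.21 and -0.24. The log2 ratio of si5 to si4 had a rho of 0.55 with the control level over the 36 synthetases and of 0.50 over the 20 cytosolic ones, against -0.069 over 12796 genes. These are correlations across genes of the same libraries, genes are not independent replicates, and their part in the results was not tested beyond the correction for length and GC content.

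Some synthetases overlap another expressed gene in the deposited coordinates. MARS shares 68 bases with DDIT3, which was at 34.1, 37.6, 26.9 and 31.0 FPKM with si4, si5, si1 and in the control. YARS shares 591 bases with S100PBP, which was at 10.9, 11.4, 10.1 and 12.6 FPKM. In the ZSCAN5A comparison the log2 ratio was -0.17 for S100PBP and 0.12 for YARS. SARS2 shares 189 bases with MRPS12, which was at 107, 97.7, 114 and 84.0 FPKM. The study's methods name a stranded mRNA library kit. Whether counting used strand is not given in the sources used here, so a part of these values could belong to the neighbour.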
